A study of Mus musculus with 8 samples.

Results

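The 6 genes described here, Zfp352, Sp110, Tmem92, Lmx1a, Arg2 and Dqx1, are genes of the 2-cell-like state that lie outside the large repeated families of that state, such as Zscan4 and Usp17l. They are 6 of the 55401 genes in the deposited count table, were chosen by symbol with knockout results of these data in view, and all 6 had enough counts to pass the filter that left 17125 genes for testing. RNA was sequenced from the R1 line of mouse embryonic stem cells (ESCs), either wild-type or knocked out for Zfp462, a zinc finger gene, to ask how its loss alters stem cells and their differentiation. The 4 groups, of 2 libraries each, were control ESCs of wild-type genotype and Zfp462 knockout ESCs, both kept on gelatin in serum with the cytokine LIF (day 0), and control and knockout embryoid bodies (EBs), the aggregates formed by the same lines after 3 days in Petri dishes. The labels state neither how many knockout clones were used, nor which exon was edited, nor whether replicate libraries stem from separate cultures, so a p-value here measures only the spread between these libraries, which may be technical.

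In cultures of mouse ESCs a few cells at a time enter a state in which genes of the 2-cell embryo, the stage when the mouse zygotic genome is first broadly transcribed, are switched on. The transcription factor DUX drives entry into this state, with DPPA2 and DPPA4 upstream of it, and chromatin regulators such as TRIM28, SETDB1, KDM1A and the histone methyltransferases encoded by Ehmt1 and Ehmt2 restrain it. Transcripts of the state are often initiated from, or lie beside, the long terminal repeats of the endogenous retrovirus MERVL.

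The promoters are shown first because those of Zfp352 and the upstream start of Sp110 each hold several copies of a short motif. Whether they derive from a common repeat element was not tested. The RefSeq promoter table (GRCm38.p6, 250 bases before to 50 after each start) held 4 entries for 3 of the 6 genes, namely Zfp352, Lmx1a and, with different starts, Sp110. Tmem92, Arg2 and Dqx1 were not matched. Capitals mark the motif TTAATC on either strand, where GATTAA is the motif on the other strand. It was chosen after these promoters had been read.
Zfp352, chr4:90218570-90218869, plus strand: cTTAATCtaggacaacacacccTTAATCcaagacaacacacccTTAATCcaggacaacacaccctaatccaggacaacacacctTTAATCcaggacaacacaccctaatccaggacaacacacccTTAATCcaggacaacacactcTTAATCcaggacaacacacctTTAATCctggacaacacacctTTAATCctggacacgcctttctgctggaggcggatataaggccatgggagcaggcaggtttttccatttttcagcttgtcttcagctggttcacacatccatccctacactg
Sp110 upstream start, chr1:85603842-85604141, minus strand: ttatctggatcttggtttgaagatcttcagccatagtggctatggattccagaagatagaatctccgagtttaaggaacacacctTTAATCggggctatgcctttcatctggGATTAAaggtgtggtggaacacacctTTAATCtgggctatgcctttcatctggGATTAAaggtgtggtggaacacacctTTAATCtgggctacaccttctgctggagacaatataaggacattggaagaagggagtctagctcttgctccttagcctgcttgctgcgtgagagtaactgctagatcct
Sp110 start at the gene model, chr1:85598761-85599060, minus strand: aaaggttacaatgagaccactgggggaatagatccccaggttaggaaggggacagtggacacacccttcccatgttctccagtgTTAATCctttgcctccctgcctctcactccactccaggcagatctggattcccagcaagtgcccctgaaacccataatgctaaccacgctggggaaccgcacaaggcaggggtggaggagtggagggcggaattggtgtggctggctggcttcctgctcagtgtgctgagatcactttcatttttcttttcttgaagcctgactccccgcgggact

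The Zfp352 promoter held 8 copies of TTAATC, all on the strand of the gene. No other of the 32851 promoters in the table held as many. Since the motif was chosen after these promoters had been read, its rarity elsewhere is a description and no test. The upstream promoter of Sp110 held 5 copies, 3 on its own strand and 2 on the other, a number reached by 3 promoters of the table (0.00913%), those of Zfp352, Sp110 and Esp24. The Sp110 start at the gene model held 1 copy, as 7.43% of promoters held at least 1, and the Lmx1a promoter (chr1:167689308-167689607, plus strand) held 0. The related motif GATTNNATC occurred 1 time, in the upstream Sp110 promoter, and in 1.58% of all promoters. A match describes letters in a window and not binding. The upstream Sp110 start lies outside the gene model that was counted, so reads that begin there are not measured separately.

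**Figure D1:**
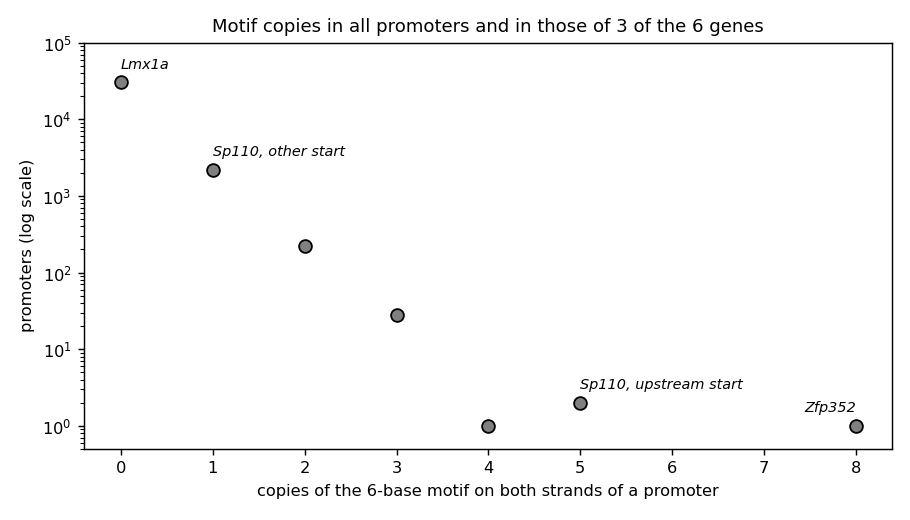
Number of RefSeq promoters (vertical axis, log scale) with each number of copies of the motif TTAATC on both strands (horizontal axis), over 32851 promoters of 300 bases. Zfp352 stands alone at 8 copies and the upstream Sp110 start is among 2 promoters with exactly 5, while the Lmx1a promoter has 0. The motif was chosen after the promoters of these genes had been read.

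The longest stretch shared by the Zfp352 and upstream Sp110 promoters was 15 bases, AACACACCTTTAATC. It occurred in 23 of 32851 promoters (0.07%), which belong to 22 genes, 20 of them other than Zfp352 and Sp110. Of those 20 genes, 13 were in the count table and 5 had enough counts to be tested. A gene with few counts passes that filter through the groups in which it is high, so the 5 are given by their values and not as a count in support. The adjusted p-values of Gm12790, Gm35974 and Gm12724, which are low in control, carry the same limit. Gm12790 rose from 0.612 ± 0.171 to 6.23 ± 0.147 counts scaled to library size (CPM) in ESCs (mean ± SD, n = 2; edgeR's quasi-likelihood test with Benjamini-Hochberg adjustment, adjusted p = 0.000419). Gm35974 rose from 0.633 ± 0.0262 to 4.41 ± 0.149 CPM (adjusted p = 0.000904 by the same edgeR test), and Pemt, an enzyme of phosphatidylcholine synthesis, from 4.09 ± 0.378 to 8.41 ± 0.453 CPM (adjusted p = 0.0149). Gm12724 had a log2 difference of 2.72 (adjusted p = 0.0372) and Gm4340, a member of a repeated family, of 1.24 (adjusted p = 0.00145). In EBs the differences were 2.7 for Gm12790 (adjusted p = 0.00438), 4.47 for Gm35974 (0.00147) and 1.3 for Gm4340 (0.00316), while Pemt (0.26, adjusted p = 0.574) and Gm12724 (3.08, adjusted p = 0.133) did not pass. The EB difference of Gm4340 was 1.28 without control EB replicate 1 and 1.32 without control EB replicate 2, and its call was lost in both cases. Among the untested genes, Gm21304 had 7 counts over the 4 control libraries and 29 over the 4 knockout libraries. Esp24, an exocrine gland peptide gene, had 4 and 26. The other untested genes in the count table had 0 to 3 counts over all 8 libraries.

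All 6 are protein-coding genes, with coordinates here in mm10. Zfp352 (ENSMUSG00000070902.5) is a short gene of 2 exons on chromosome 4 (90218820 to 90225702, plus strand). Sp110 (ENSMUSG00000070034.13) has 13 exons on chromosome 1 (85576899 to 85598817, minus strand). Lmx1a (ENSMUSG00000026686.14) has 9 exons on the same chromosome (167689237 to 167848741, plus strand). Tmem92 (ENSMUSG00000075610.9) has 5 exons on chromosome 11 (94777217 to 94782703, minus strand). Arg2 (ENSMUSG00000021125.6) has 8 exons on chromosome 12 (79130777 to 79156301, plus strand). Dqx1 (ENSMUSG00000009145.6) has 12 exons on chromosome 6 (83057844 to 83067318, plus strand).

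The description of these genes as single-copy was checked against the annotated transcripts by counting the stretches of 50 bases that a gene shares with any other gene. Lmx1a shared 0.0598% of its stretches, Dqx1 1.14%, Tmem92 1.93% and Zfp352 7.09%, most of the last with the pseudogene Zfp353-ps (6.29%). The shared stretches of Tmem92 lie in unprocessed pseudogenes, Gm11544 among them (1.93%). Only identical stretches count, so copies that have diverged are not found. Whether the pseudogenes beside Tmem92, described below, are such copies was not tested. Sp110 went against the description, with 42.3% of its 6914 stretches found in another gene, 26.7% in the pseudogene Gm16026 and 6.83% in the pseudogene Gm15753, so reads could be divided between them and its counts are uncertain. Arg2 shared 21.2%, of which 17.1% lie in Vti1b, a gene on the opposite strand whose exons overlap those of Arg2. The lowest coordinate of Vti1b, 79156017, lies before the end of Arg2 at 79156301. No source used here states the strand setting of the counting, so in that overlap reads of Arg2 and Vti1b cannot be told apart. Vti1b, which encodes a SNARE protein, stood between 38.5 and 49.1 CPM in all 8 libraries. Sp110 overlaps G530012D18Rik on the opposite strand by 392 exonic bases, and that gene had 0 counts in every library.

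Library totals ranged from 12119763 to 16228426 counts, so that 1 count was worth 0.0614 to 0.0814 CPM. Zfp462 itself read 183 and 197 CPM in the control and 104 and 107 CPM in the knockout ESC libraries, and 154 and 130 CPM in the control and 102 and 103 CPM in the knockout EB libraries, lower in every knockout library than in any control library but not absent. The 7 pluripotency markers were detected in each library, and summed to 4601 and 4686 CPM in the control and 3381 and 3371 CPM in the knockout ESC libraries (4 of 7 were lower at an adjusted p below 0.05) and to 2534 to 2681 CPM in EBs. The 4 markers of the early epiblast summed to 300.5 to 359.8 CPM in ESCs, and to 1734 and 1836 CPM in the control and 1102 and 1079 CPM in the knockout EB libraries (3 of 4 were lower). Knockout EB replicate 1 stood apart, where each of 15 adult liver genes had 10 or more counts and a sum of 2136 CPM, against 6.08 to 31.2 CPM in the other 7 libraries. The knockout ESC replicates differed from each other with a trend on the GC content of transcripts (correlation 0.459 across genes, against -0.0311 to -0.00137 in the other groups). The 8 fibroblast genes, markers of feeder cells, summed to 18.1 to 27.4 CPM. Summed markers of the extraembryonic endoderm were 2612 to 2751 CPM in the control and 9217 to 11470 CPM in the knockout ESC libraries, with 2809 to 2917 CPM and 5337 to 5951 CPM in the EB libraries of the same genotypes. The endoderm markers were thus higher in knockout in both stages. Of the pluripotency markers, 2 were higher and 0 lower in knockout EBs, and of the epiblast markers 2 were higher and 2 lower in knockout ESCs. Of all tested genes 8.3% were higher and 6.2% lower in knockout ESCs, and 4.75% and 2.04% in knockout EBs. The part of these markers in the results below was not tested.

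Zfp352, a zinc finger gene transcribed at the 2-cell stage, had the largest knockout-to-control ratio of the 6. Control ESCs had 0.57 and 1.29 CPM, knockout ESCs 6.34 and 10.3 CPM, control EBs 0.133 and 0 CPM, and knockout EBs 2.11 and 2.66 CPM. All 4 knockout libraries lay above all 4 control libraries. The log2 difference between knockout and control was 3.1 ± 0.47 (estimate ± SE) in ESCs, an 8.6-fold difference. It was 3.84 without control ESC replicate 2 and 2.67 without control ESC replicate 1. In EBs the counts were 28 and 35 in knockout against 2 and 0 in control, a ratio of 33.2 scaled to library size with a 95% interval of 8.81 to 280 that covers counting error only. The control EB library with 0 counts allows up to 0.235 CPM (3 counts). The fitted EB difference of 4.89 ± 0.76 moved to 8.02 without control EB replicate 1, which leaves only the control library at 0, and to 4.08 without control EB replicate 2. The pseudogene Zfp353-ps, which shares sequence with Zfp352, had 3 and 0 counts in control ESCs, 37 and 54 in knockout ESCs, 6 and 0 in control EBs, and 9 and 13 in knockout EBs.

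In bulk RNA, more cells in the 2-cell-like state and more RNA per cell in that state cannot be told apart, and this holds for each of the 6 genes.

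Tmem92, which encodes a small transmembrane protein, had the highest level of the 6 per transcript length, at 14.9 RPKM (counts scaled to library size and gene length) in knockout ESCs. The other 5 ranged there from 1.02 RPKM (Dqx1) to 3.8 RPKM (Arg2). Control ESC libraries read 7.65 and 7.06 CPM, knockout ESCs 32.7 and 32.5 CPM, control EBs 2.72 and 3.84 CPM, and knockout EBs 20.9 and 23.1 CPM. No library of any group overlapped with one of another group. The knockout difference was 2.15 ± 0.18 in ESCs and 2.75 ± 0.2 in EBs on the log2 scale, 4.43-fold and 6.74-fold.

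Sp110, which encodes a nuclear body protein of the SP100 family known from interferon responses, read 1.79 and 1.47 CPM in the control and 8.31 and 8.73 CPM in the knockout ESC libraries. In EBs it stood at 0.995 and 1.88 CPM in control and 5.8 and 3.73 CPM in knockout. The control groups of both stages overlapped, and the knockout groups lay above them and apart from each other. The log2 difference was 2.39 ± 0.35 in ESCs (5.23-fold) and 1.74 ± 0.36 in EBs (3.34-fold). The EB value was 1.39 without knockout EB replicate 1, the library with liver transcripts, and 2.02 without knockout EB replicate 2. It was 1.33 without control EB replicate 1 and 2.25 without control EB replicate 2.

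Lmx1a, a LIM homeodomain transcription factor known from the roof plate of the neural tube and from midbrain dopaminergic progenitors, read 1.95 and 1.66 CPM in the control and 5.83 and 7.21 CPM in the knockout ESC libraries. In EBs it stood at 0.995 and 0.549 CPM in control and 2.86 and 3.2 CPM in knockout. The 4 groups did not overlap. The knockout difference was 1.85 ± 0.33 in ESCs (3.61-fold) and 1.94 ± 0.37 in EBs (3.83-fold).

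Arg2, the mitochondrial arginase that splits arginine into ornithine and urea, read 1.06 and 1.11 CPM in the control and 4.74 and 6.11 CPM in the knockout ESC libraries. It stood at 0.796 and 1.25 CPM in control EBs and at 3.01 and 3.04 CPM in knockout EBs. Here too the control groups of both stages overlapped while each knockout group lay above them. The difference was 2.31 ± 0.35 in ESCs (4.97-fold) and 1.57 ± 0.36 in EBs (2.97-fold), while Vti1b on the other strand differed by 0.08 ± 0.13 and 0.17 ± 0.13.

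Dqx1, which encodes a DEAQ-box protein related to RNA helicases, was the exception in ESCs. The control ESC libraries read 2.28 and 3.5 CPM and the knockout ESC libraries 3.57 and 3.42 CPM, groups that overlapped. In EBs it stood at 0.663 and 1.65 CPM in control and 3.39 and 2.89 CPM in knockout, groups that did not. The difference was 0.26 ± 0.39 in ESCs and 1.46 ± 0.44 in EBs. The ESC value was -0.01 without control ESC replicate 1 and 0.61 without control ESC replicate 2, and the EB value was 0.92 without control EB replicate 1 and 2.23 without control EB replicate 2.

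**Figure D2:**
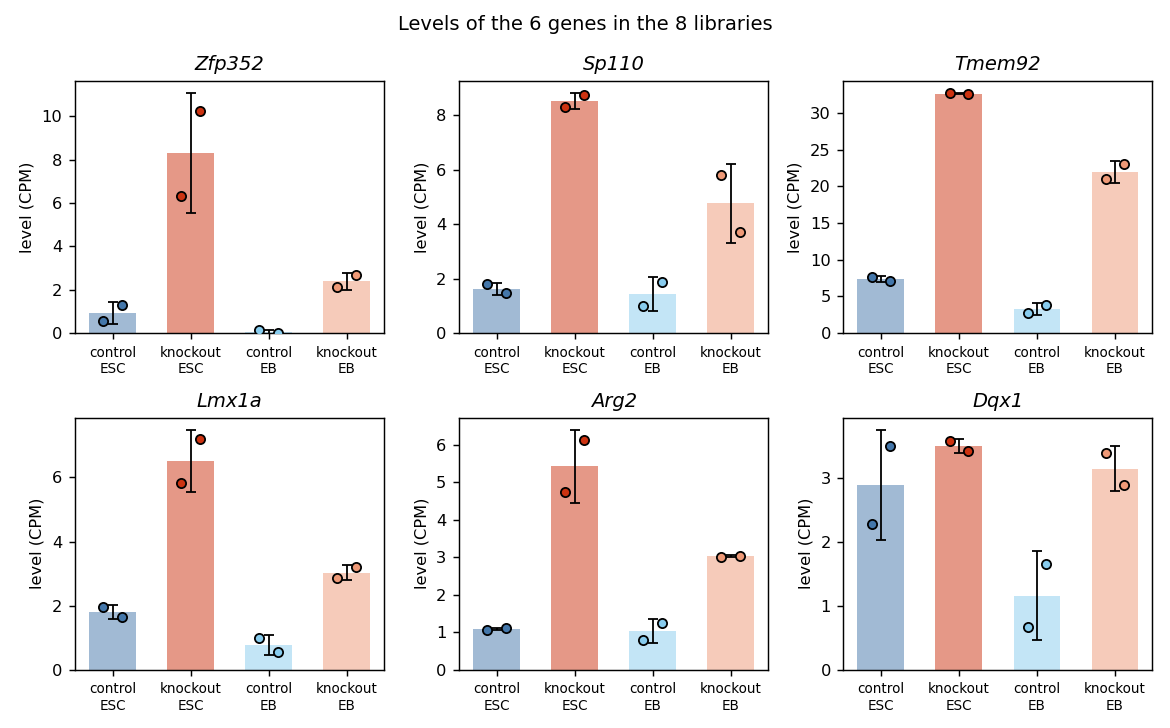
CPM (vertical axes, from 0) of the 6 genes in control and knockout ESCs and EBs; points are the 2 libraries of a group, bars their mean and lines 1 SD. Knockout libraries lie above control libraries of the same stage for each gene other than Dqx1 in ESCs.

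For all 6 genes the group means fell in the same order, knockout ESCs highest, then knockout EBs, control ESCs and control EBs. Tmem92, Lmx1a and Zfp352 held that order without overlap between neighbouring groups. The share of all tested genes with this order was not computed. Because the genes were chosen with knockout results in view, the order is only a description. For Sp110 and Arg2 the control groups overlapped, and for Dqx1 the control ESC libraries spanned the knockout EB libraries and reached into the knockout ESC range. Summed over the 6 genes, control ESCs had 15.3 and 16.1 CPM, knockout ESCs 61.5 and 68.3 CPM, control EBs 6.3 and 9.18 CPM, and knockout EBs 38.1 and 38.6 CPM. The knockout EB library with liver transcripts, replicate 1, did not stand out from its replicate in this sum, in which Tmem92 weighs most. Single genes differed more, with 5.8 CPM in replicate 1 and 3.73 CPM in replicate 2 for Sp110. For Zfp352 the values were 2.11 and 2.66 CPM.

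Both knockout comparisons were known when the genes were chosen, so they are given as descriptions. The counts, shares and ranks that follow may reflect that choice and are no test of the 6 genes. In ESCs 5 of the 6 were past an adjusted p of 0.05 and higher in knockout, where 8.3% of all tested genes were, and in EBs 5 of 6 were, where 4.75% of all tested genes were. None was past it and lower, as 6.2% and 2.04% of all tested genes were. The median log2 difference over the 6 was 2.23 in ESCs and 1.84 in EBs, and that over all genes was -0.03 and 0. Both knockout libraries lay above both control libraries for 5 of 6 genes in ESCs (25.1% of all tested genes) and for 6 of 6 in EBs (30% of all tested genes). In the ranking of all tested genes by log2 difference in ESCs, 0.572% lay above Zfp352, 1.4% above Sp110, 1.6% above Arg2, 2.08% above Tmem92, 3.09% above Lmx1a and 25.9% above Dqx1. In EBs the corresponding shares ran from 0.409% for Zfp352 to 4.69% for Dqx1. Without knockout ESC replicate 2 and knockout EB replicate 1 together, the medians were 2.16 in ESCs and 1.8 in EBs, and with the GC trend of each library removed they were 2.14 and 1.67.

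**Figure D3:**
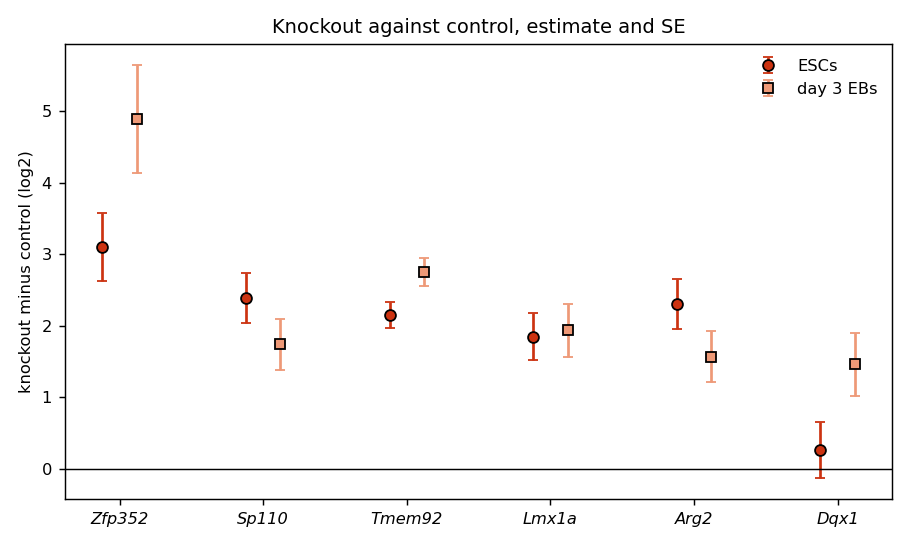
Log2 difference between knockout and control (vertical axis) for each of the 6 genes in ESCs and in day 3 EBs, with points for the estimate and lines for 1 SE. Estimates run from 0.26 (Dqx1) to 3.1 (Zfp352) in ESCs and from 1.46 (Dqx1) to 4.89 (Zfp352) in EBs.

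The difference between the EB and ESC knockout effects shares its libraries with both comparisons above and is therefore given without a test for these genes. Over all tested genes 1.38% passed it. It was positive for Zfp352 (1.79 ± 1.02), Dqx1 (1.2 ± 0.59) and Tmem92 (0.6 ± 0.26), near 0 for Lmx1a (0.09 ± 0.47) and negative for Sp110 (-0.65 ± 0.51) and Arg2 (-0.75 ± 0.51). 
The change from ESCs to EBs averaged over both genotypes was tested. Its weights are, with equal groups, orthogonal to those of the knockout contrasts. At low counts the groups differ in precision, with an SE for this change in Zfp352 of 0.86 in control and 0.43 in knockout cells. The averaged change is therefore not strictly independent of the knockout contrasts, and leaving out a library makes the groups unequal. By edgeR's quasi-likelihood test with Benjamini-Hochberg adjustment over all 17125 genes, 3 of the 6 fell, 0 rose and 3 did not pass, where 15.4% of all tested genes fell and 14.8% rose. On the log2 scale Zfp352 fell by 2.69 ± 0.47 (adjusted p = 0.00192 by edgeR), Tmem92 by 0.87 ± 0.13 (adjusted p = 0.000854) and Lmx1a by 1.15 ± 0.25 (adjusted p = 0.0064). Dqx1 had -0.75 ± 0.29 (adjusted p = 0.0761), Sp110 -0.51 ± 0.25 (adjusted p = 0.151) and Arg2 -0.47 ± 0.25 (adjusted p = 0.191). The calls of Zfp352, Tmem92 and Lmx1a held under all 16 alternatives run, with a highest adjusted p of 0.025, 0.00909 and 0.0369. The size of the Zfp352 fall depended on 1 library, with -4.25 ± 0.73 (adjusted p = 0.00796) without control EB replicate 1, which leaves the control EB library at 0 counts. Dqx1 passed with the GC trend removed (adjusted p = 0.0363) and without control EB replicate 2 (adjusted p = 0.0287). The median over the 6 was -0.81, beside -0.01 for all genes.

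Within genotypes the fall was spread unevenly over the 6. From control ESCs to control EBs the log2 change was -3.59 ± 0.86 for Zfp352, -1.35 ± 0.44 for Dqx1, -1.19 ± 0.39 for Lmx1a and -1.17 ± 0.21 for Tmem92, and these 4 genes had both EB libraries below both ESC libraries (33.1% of all tested genes did). It was -0.19 ± 0.39 for Sp110 and -0.09 ± 0.4 for Arg2, whose libraries overlapped. In knockout cells all 6 had both EB libraries below both ESC libraries (29.2% of all tested genes did), with changes from -1.8 ± 0.43 for Zfp352 to -0.15 ± 0.39 for Dqx1. Sp110 and Arg2 had -0.84 ± 0.32 each.

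**Figure D4:**
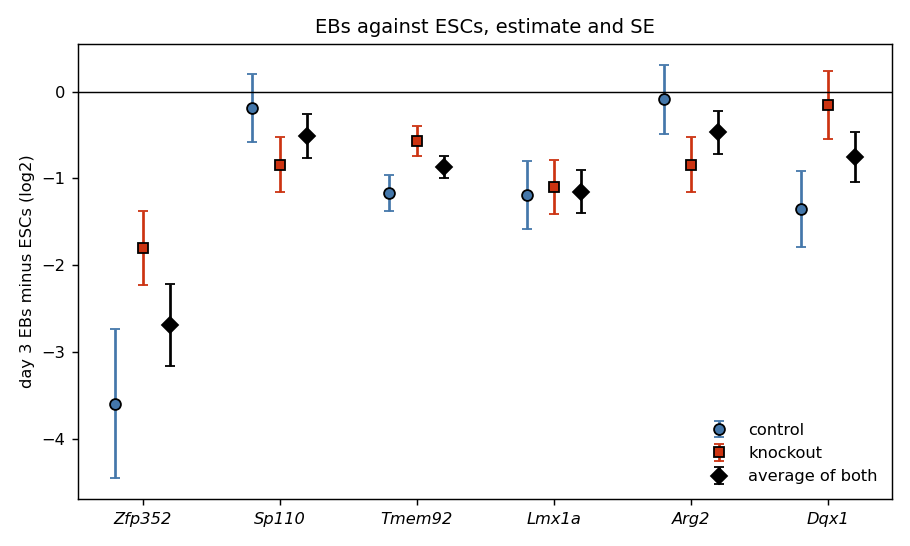
Log2 difference between day 3 EBs and ESCs (vertical axis) for the 6 genes in control cells, in knockout cells and averaged over both, with points for the estimate and lines for 1 SE. The averages are all below 0, from -2.69 (Zfp352) to -0.47 (Arg2).

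Regulators of the 2-cell-like state did not move as one group. Among all tested genes, 8.3% rose and 6.2% fell in knockout ESCs, and 4.75% and 2.04% in knockout EBs. Of 7 activators, 2 rose, 2 fell and 3 did not pass in knockout ESCs (median log2 difference 0.27), and 2 rose, 0 fell and 5 did not pass in knockout EBs (median 0.11). Duxf3, the gene of DUX, had 17 and 12 counts in control ESCs, 32 and 20 in knockout ESCs, 1 and 4 in control EBs, and 23 and 35 in knockout EBs. It rose in knockout EBs (3.53, edgeR adjusted p = 0.0153) and did not pass in ESCs (0.86, adjusted p = 0.358). Leaving out control EB replicate 1 (adjusted p = 0.166), the other control EB library (0.0504) or knockout EB replicate 2 (0.0945) ended the EB call. Dppa2 did not pass in either stage (0.27, adjusted p = 0.128 in ESCs, and 0.11, adjusted p = 0.625 in EBs), and its partner Dppa4 fell in ESCs (-0.44, adjusted p = 0.00589). Nelfa, a maternal elongation factor subunit, rose in ESCs (0.47, adjusted p = 0.0068), Trp53 fell there (-0.51, adjusted p = 0.00536), and Tbx3, a T-box factor, rose in both stages (0.62, adjusted p = 0.0133, and 1.35, adjusted p = 0.00042). Without control ESC replicate 1 or control ESC replicate 2, 0 activators passed in ESCs in either direction, whereas the Tbx3 call in EBs held without any 1 library.

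Of 24 repressors, 0 rose, 4 fell and 20 did not pass in knockout ESCs (median -0.16), and 1 rose, 2 fell and 21 did not pass in knockout EBs (median -0.15). The median of all genes was -0.03 and 0, and of all tested genes 6.2% fell in ESCs and 2.04% in EBs, while 8.3% and 4.75% rose. Lin28a, an RNA-binding protein, fell by 0.97 in ESCs (adjusted p = 5.73e-05 by edgeR) and by 0.56 in EBs (adjusted p = 0.00311). Kdm1a, the histone demethylase LSD1, fell by 0.53 in ESCs (adjusted p = 0.00182). Both ESC calls held without any 1 library, and leaving out control EB replicate 1 ended that of Lin28a in EBs (adjusted p = 0.0673). Trim28 (-0.15, adjusted p = 0.523), Setdb1 (-0.19, adjusted p = 0.164), Ehmt1 (0.12, adjusted p = 0.523), Ehmt2 (0, adjusted p = 0.996) and Wiz (-0.65, adjusted p = 0.0899) did not pass in ESCs. The number of repressors that fell in ESCs depended on the libraries used. It was 2 without control ESC replicate 1 or control ESC replicate 2, 11 without knockout ESC replicate 1, 9 without knockout ESC replicate 2 and 12 with the GC trend removed. In EBs it was 7 without knockout ESC replicate 1, 8 without knockout ESC replicate 2, 0 without control EB replicate 1 and 1 without any other single library.

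The repeated families of the state share near-identical copies, so the counts of any 1 gene are uncertain. Of 22 listed genes 19 were tested, and 19 of 19 were higher in knockout in both stages. Of all tested genes 8.3% were higher in knockout ESCs and 4.75% in knockout EBs. A listed gene with few counts is tested only where some group lifts it past the filter, so this number is a description. These families were listed with their knockout values known. Zscan4d, a zinc finger gene that marks the state, had 34.7 ± 2.06 CPM (mean ± SD, n = 2) in control against 147 ± 38.1 CPM in knockout ESCs, and 9.43 ± 1.47 against 61.5 ± 6.23 CPM in EBs. Averaged over genotypes, 0 of the 19 rose and 19 fell from ESCs to EBs (median -1.62, beside -0.81 over the 6 genes described here). Of all tested genes 14.8% rose and 15.4% fell in that average.

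Genes that share a setting with single members were compared in the same way. The shares of all tested genes were again 8.3% higher and 6.2% lower in knockout ESCs, and 4.75% and 2.04% in knockout EBs. Among SP100 and interferon-response genes, the company of Sp110, 2 of 22 rose, 5 fell and 15 did not pass in knockout ESCs (median 0.1), and 1 rose, 3 fell and 18 did not pass in EBs (median -0.14). B2m, the light chain of MHC class I, rose from 24.1 ± 0.534 to 57.9 ± 0.753 CPM in ESCs (1.27, adjusted p = 0.000254 by edgeR), whereas Psmb8, an immunoproteasome subunit, fell from 0.991 ± 0.25 to 0.255 ± 0.154 CPM (-1.94, adjusted p = 0.0225). Averaged over genotypes, 13 of the 22 rose from ESCs to EBs and 1 fell, where 14.8% of all tested genes rose and 15.4% fell. Sp110 had -0.51 in that average and did not pass. Of 10 roof plate and midbrain progenitor genes, the setting of Lmx1a, 2 rose, 2 fell and 6 did not pass in ESCs. Below, the whole list is called roof plate genes for short, midbrain genes included. Foxa2, a forkhead factor, had 5.35 ± 0.427 CPM in control ESCs and rose to 15.8 ± 3.88 CPM (adjusted p = 0.000962). Pax6 fell (-1.07, adjusted p = 0.0462). Of 15 genes of arginine and polyamine metabolism, the setting of Arg2, 1 rose, 1 fell and 13 did not pass in ESCs. Slc7a1, an arginine transporter, rose from 89 ± 7.45 to 147 ± 15.2 CPM (adjusted p = 0.00128), and Sms, which makes spermine, fell (-0.57, adjusted p = 0.00381). The ESC calls of B2m, Foxa2 and Slc7a1 held without any 1 library. Psmb8 was lost without either control ESC library (adjusted p up to 0.184) or without knockout ESC replicate 1, Sms without control ESC replicate 2 (adjusted p = 0.0797), and Pax6 without any 1 of the 8 libraries. The counts moved with them. Without control ESC replicate 1 or control ESC replicate 2, 1 interferon-response gene rose and 0 fell in ESCs, and 1 roof plate gene rose and 0 fell. Without knockout ESC replicate 1, 3 arginine and polyamine genes rose and 2 fell, and without knockout ESC replicate 2, 4 roof plate genes rose and 1 fell.

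The 2 nearest tested genes on each side of each member, 24 in all, were taken by position. A neighbour with few counts is tested only where some group lifts it past the filter, as Gm16026 was at 0.296 CPM in control and 2.37 CPM in knockout ESCs, so the number that rose is a description of the tested genes and not of all genes nearby. In knockout ESCs 7 rose, 2 fell and 15 did not pass (median 0.22), where 8.3% of all tested genes rose and 6.2% fell. In knockout EBs 2 rose, 0 fell and 22 did not pass, a share close to that of all tested genes (4.75% rose and 2.04% fell). All 7 that rose lie beside Tmem92, Sp110 or Zfp352. Beside Tmem92, 3 pseudogenes rose, and the gene Cdc34b had 1.15 and did not pass (adjusted p = 0.22). Gm11546, 14346 bases away, had 15 and 10 counts in control ESCs and 77 and 183 in knockout ESCs (3.39, adjusted p = 0.0013 by edgeR), and it was higher in knockout EBs too (4.2, adjusted p = 0.00495). AA623943, 29916 bases away, rose from 3.08 ± 0.362 to 11.8 ± 1.74 CPM (1.94, adjusted p = 0.00515) and was higher in EBs (3.53, adjusted p = 0.00177). Gm11545, 19454 bases away, rose by 1.67 on the log2 scale (adjusted p = 0.0278).

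Beside Sp110, its relative Sp140, 1561 bases from the counted gene model, rose from 1.06 ± 0.235 to 3.13 ± 0.21 CPM in knockout ESCs (adjusted p = 0.0241 by edgeR). Sp140 spans 85600378 to 85645037 on the opposite strand, which takes in the upstream Sp110 promoter (85603842 to 85604141). The strand setting of the counting is not stated. Whether reads from the upstream Sp110 start were counted for Sp140 was not tested. The pseudogenes Gm16026, which shares sequence with Sp110, and Gm6264 rose as well (3.02, adjusted p = 0.0123, and 2.9, adjusted p = 0.00777). Beside Zfp352, the cell cycle inhibitor Cdkn2a, 924167 bases away, rose (0.94, adjusted p = 0.00722) and the RNA-binding protein gene Elavl2, 1025061 bases away, fell (-0.59, adjusted p = 0.0324). Beside Lmx1a, Rxrg was listed at 0 in both knockout ESC libraries and at 0.5 ± 0.099 CPM in control ESCs. None of the 8 neighbours of Arg2 and Dqx1 passed in either knockout comparison. The count of neighbours that rose in ESCs was 1 without control ESC replicate 1 and 2 without control ESC replicate 2, and Gm11546 still passed in both cases (highest adjusted p 0.0497 over the 8 libraries left out in turn). Without either of these libraries 0 neighbours fell. In EBs the number that rose was 4 without knockout ESC replicate 1, 5 without knockout ESC replicate 2, and 1 without control EB replicate 1 or control EB replicate 2.

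**Figure D5:**
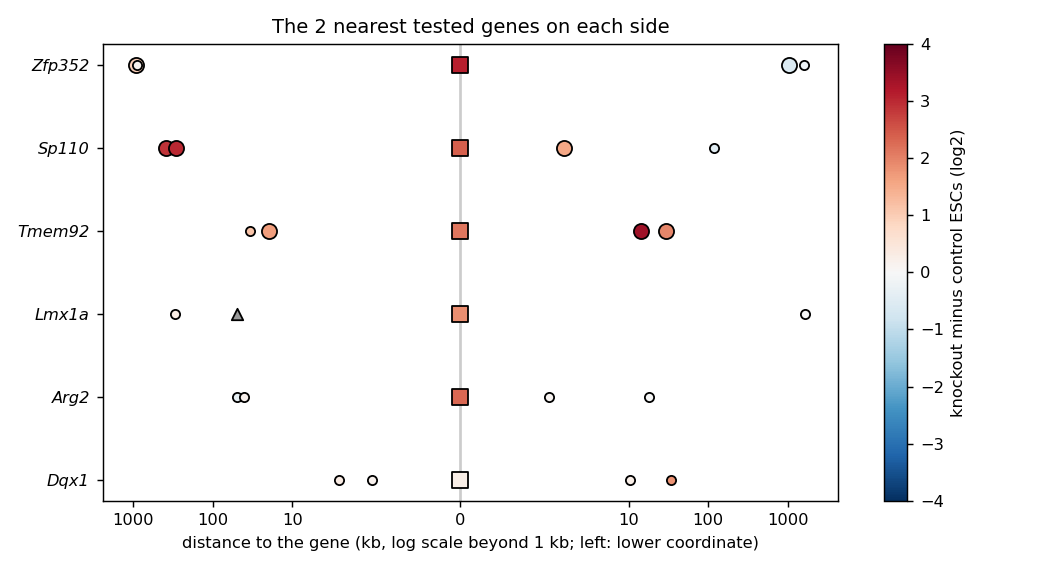
Distance in kb (horizontal axis, log scale beyond 1 kb) from each of the 6 genes (squares) to the 2 nearest tested genes on each side, coloured by the log2 difference between knockout and control ESCs. Large circles passed the test, small circles did not, and the triangle is Rxrg, at 0 in knockout ESCs; 1 neighbour is not shown, and red circles gather beside Tmem92 and Sp110.

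Likeness of pattern was measured as the root mean square (RMS) difference between log2 CPM values centred on their mean over the 8 libraries. Among the 6 genes the closest pair was Sp110 and Arg2 (0.221 on the log2 scale), and the most distant was Zfp352 and Dqx1 (1.51). Of 12076 other genes that averaged 5 CPM or more in the highest group, those nearest to the mean pattern of the 6 were Arhgef26 (0.165), Gm21939 (0.204), Gm8038 (0.238), AC127331.5 (0.26) and Lgals9, a galectin (0.26). Nearest to single members were Trim75 for Zfp352 (0.367), Naalad2 for Sp110 (0.237), the pseudogene Gm11543 for Tmem92 (0.203), Gm13228 for Lmx1a (0.112), Arpin for Arg2 (0.144) and Qpct for Dqx1 (0.224). Gm11543 read 2.85 and 2.95 CPM in the control and 13.9 and 15.3 CPM in the knockout ESC libraries, and shares 0.583% of the 50-base stretches of Tmem92.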

How the data were processed

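RNA was poly(A)-selected with a TruSeq kit, per the labels' protocols. The deposited values are raw counts of each gene in 8 libraries, per the file headers. The build mm10 and the tools HISAT2, featureCounts and DESeq2 come from the submitters' processing notes. For strand, read pairing and reads with several matches, no setting is stated in the sources. A symbol was found for 55141 of the 55401 IDs, matched without the ID version. Of these IDs in the count table, 54349 had the same version and coordinates in GENCODE M21.

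The members and gene lists were chosen with earlier results of these data known. The other genes named are regulators chosen by name, list genes taken in order of adjusted p, neighbours past the threshold and the nearest patterns; 1 neighbour that meets this rule is not reported here. Genes from the shared promoter stretch, Zfp353-ps and Vti1b were named after their values were seen.

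Genes were filtered with edgeR's filterByExpr, scaled by TMM and fitted with edgeR's quasi-likelihood model, 1 mean per group over all 8 libraries (biological coefficient of variation 0.132). Benjamini-Hochberg adjustment ran over 17125 genes, with calls at 0.05. SEs were taken from the log2 difference and its F statistic. CPM used TMM-adjusted library sizes, and RPKM the table's gene lengths. Likeness used log2 CPM with a prior count of 2. The code was tested on simulated data. Alternatives were median-of-ratios factors, library totals, no filter, a mean of at least 1 CPM, a replicate block, DESeq2, only the groups compared, and each library left out. Removal of GC trends (a spline with 5 degrees of freedom) and leaving out both doubtful libraries (knockout ESC replicate 2 and knockout EB replicate 1) were chosen after seeing the data. The GC trend lies in the difference between the knockout ESC replicates and does not settle which of them is off. DESeq2 1.42.0, edgeR 4.0.16 and limma 3.58.1 were run in R 4.3.3.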

Additional observations from a re-analysis of the deposited data

Results flagged for a closer look

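The knockout effect on 2 genes differed between the stages by the test of the difference itself (EB effect minus ESC effect, edgeR's quasi-likelihood test with Benjamini-Hochberg adjustment), which 1.38% of all tested genes passed. Zfp42, which encodes REX1 and is listed among the repressors, had a difference of 0.94 on the log2 scale (adjusted p = 0.0114). It stood at 937 ± 28.3 CPM in control and 662 ± 89.3 CPM in knockout ESCs, and at 275 ± 4.61 CPM and 373 ± 6.8 CPM in the EBs (mean ± SD, n = 2), so it was lower in knockout ESCs (adjusted p = 0.00492 by edgeR) and higher in knockout EBs (adjusted p = 0.0204). The ESC call was lost without control ESC replicate 1 or control ESC replicate 2, and the EB call without any 1 of the 6 libraries other than those of knockout ESCs. Gm5662, of a repeated family, had a difference of 1.38 (adjusted p = 0.0324), with 36 ± 0.932 and 119 ± 32.3 CPM in control and knockout ESCs and 6.37 ± 0.856 and 54.5 ± 2.91 CPM in control and knockout EBs.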

How the results depend on the processing

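With 2 libraries per group, low counts limited precision: Zfp352 had 2 counts over both control EB libraries. The members' median lay between 2.13 and 2.27 in ESCs and between 1.8 and 2.24 in EBs over the libraries left out in turn, and 3 to 4 of the 6 passed in the stage average. Dqx1 in ESCs ranged from -0.01 (without control ESC replicate 1) to 0.61.

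Replicate numbers did not pair the libraries (correlations of -0.0886 to 0.0227 between same-numbered deviations). The replicate block left 1294 genes higher and 987 lower in ESCs and 694 and 273 in EBs, with 1 repressor lower in EBs.

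Over all genes, 1421 were higher and 1062 lower in ESCs and 814 and 350 in EBs. Lower in ESCs were 2387 with the GC trend removed, 1658 without both doubtful libraries and 407 with only the groups compared. In EBs 1442 were higher and 652 lower with no filter, 1449 and 1271 with only the groups compared, 2168 lower with the GC trend removed and 858 without both doubtful libraries. Calls that were higher made up 57.2% in ESCs and 69.9% in EBs, but 42.2% and 34.4% with the GC trend removed, which moved the median of all genes to -0.08 and -0.1. The cause of these shifts was not tested.

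For lists and neighbours, only the groups compared gave 1 activator higher and 0 lower and 1 neighbour lower in ESCs, and 6 repressors lower in EBs. GC removal gave 12 repressors and 4 neighbours lower in ESCs, and 2 activators, 13 repressors and 2 neighbours lower and 5 neighbours higher in EBs. Without both doubtful libraries 1 repressor was higher and 8 lower in ESCs, and 5 lower in EBs. No filter gave 4 neighbours higher in EBs.

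With each library left out in turn, all genes ranged from 485 to 1948 higher and 271 to 2781 lower in ESCs, 196 to 1721 and 40 to 1466 in EBs, and 1393 to 3911 and 1439 to 3380 in the stage average. Activators ranged from 0 to 3 higher and 0 to 2 lower in ESCs, and 1 to 3 and 0 to 1 in EBs. Repressors ranged from 0 to 2 and 2 to 11 in ESCs, and 0 to 1 and 0 to 8 in EBs. Repeated families ranged from 16 to 19 higher in ESCs and 15 to 19 in EBs, and neighbours from 1 to 8 higher and 0 to 3 lower in ESCs, and 1 to 5 and 0 to 1 in EBs. Interferon-response genes ranged from 1 to 3 and 0 to 5 in ESCs, and 0 to 1 and 0 to 4 in EBs, roof plate genes from 1 to 4 and 0 to 1, and 0 to 1 and 0 to 3, and arginine and polyamine genes from 1 to 3 and 0 to 2, and 0 to 5 and 0 to 2.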
